A study of Mus musculus with 14 samples.

Results

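The 9 genes described here encode proteins of vitamin A (retinoid) metabolism: the enzymes Dhrs3, Rdh10, Aldh1a1, Aldh1a2 and Aldh1a3, the carriers Rbp4, Crabp1 and Crabp2, and the membrane receptor Stra6. They were taken as the rows of these genes in a table of 35271 genes, and all 9 had a row. Dhrs3 was chosen because it was among the genes most variable for their mean level in these same cells, so its spread between cells is a description and supports nothing. The samples were 14 single cells labelled as mesangial cells, the contractile cells between the capillaries of the kidney glomerulus, from 1 male wild-type mouse of 8 weeks. The series' design text calls the strain C57BL/6 and the sample labels C56BL/6. Magnetic beads served to enrich the glomeruli, enzymes to release their cells, and a Fluidigm C1 instrument to capture single cells and prepare cDNA from each one separately. All cells form 1 group from 1 animal, so no test was possible, and every value below describes these cells only.

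Retinol reaches cells on the plasma carrier Rbp4 and can enter them through Stra6. Inside the cell, retinol dehydrogenases such as Rdh10 oxidise it to retinaldehyde, and the Aldh1a enzymes oxidise retinaldehyde further to retinoic acid, the ligand of nuclear receptors that control transcription. Dhrs3 works in the opposite direction to Rdh10, reducing retinaldehyde back to retinol. Crabp proteins bind retinoic acid in the cytoplasm and Cyp26 enzymes break it down. Dhrs3 is itself known as a gene induced by retinoic acid in several tissues.

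Levels are given as RPKM, a read number scaled to gene length and to the reads of the cell, and detected means an RPKM of 1 or more. The read totals recovered from the steps of the values ran from 6.60 M to 23.8 M reads per cell, with a median of 9.75 M. Each cell had 1770 to 5277 detected genes, with a median of 2847. Of 9 mesangial marker genes 8 were detected in some cell, beside 41.8% of protein-coding genes. Each cell had 6 to 8 of the markers at an RPKM of at least 10. Tbx18 was listed at 0 in all 14 cells. The genes of this and the other marker lists were named after their values were seen, so these counts do not support the label. Pearson's r between cells, across detected genes, ran from 0.27 to 0.43 over the 91 pairs, so no pair of cells held near-identical values.

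Dhrs3 was the one transcript of the 9 that these cells carried widely. On GRCm38 the gene (ENSMUSG00000066026) lies on chromosome 4 from 144892827 to 144928209 on the plus strand. It is annotated as protein-coding, no other annotated gene overlaps it, and 0% of its 50-base stretches occur in transcripts of other genes. The 250 bases upstream of its annotated gene start are printed here because Dhrs3 carries the main pattern among the 9 genes. They come from the RefSeq promoter table on GRCm38.p6, chr4:144892577-144892826, plus strand, with CG dinucleotides in capitals. That table lists 3 starts for Dhrs3, and only the stretch at this one was searched.
Dhrs3 upstream: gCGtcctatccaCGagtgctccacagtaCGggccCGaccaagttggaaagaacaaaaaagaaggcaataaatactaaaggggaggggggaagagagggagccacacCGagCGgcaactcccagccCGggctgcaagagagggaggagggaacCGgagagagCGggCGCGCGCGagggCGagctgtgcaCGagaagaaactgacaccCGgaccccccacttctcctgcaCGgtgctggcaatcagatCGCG

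This stretch holds 19 CG dinucleotides, against a median of 6 in the upstream stretches of the same length of all 32817 annotated starts, and 19.7% of those hold as many or more. Its GC content is 61.6%, against a median of 52.4%. Among core hexamers of retinoic acid receptor binding, only AGGTCA and AGTTCA were searched, on both strands. Neither is in this window, while 24.2% of all windows hold at least 1 of them. Tandem pairs of these hexamers in the same orientation, which also count as single hexamers, were not in the window with gaps of 1, 2 or 5 bases, and 0.067%, 0.037% and 0.034% of all windows hold such pairs. A match or its absence describes the letters of the window only.

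Dhrs3 was detected in 10 of 14 cells (71.4%, exact Clopper-Pearson interval 41.9% to 91.6%). It was highest in GL_M_91, with an RPKM of 4084, followed by 1793 in GL_M_36, 1535 in GL_M_30, 1507 in GL_M_94 and 1418 in GL_M_29. GL_M_75 had 1255, GL_M_47 had 1080, GL_M_85 had 889, GL_M_11 had 689 and GL_M_6 had 149. In the remaining cells Dhrs3 was at 0.818 in GL_M_65, 0.165 in GL_M_60 and 0.123 in GL_M_51, and it was listed at 0 in GL_M_55. No cell lay between an RPKM of 0.818 and 149, a gap of 182-fold.

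The reads behind these values were recovered from the RPKM. All Dhrs3 values came out as whole reads, within 0.001 reads, at a gene length of 1276 bases, which gave 92425 reads in GL_M_91 and 1531 in GL_M_6. The low cells had 9 reads in GL_M_65, 5 in GL_M_60, 3 in GL_M_51 and 0 in GL_M_55. In GL_M_55 a count of 0 allows an RPKM of up to 0.310, the value of 3 reads. The exact Poisson intervals of the reads, which cover counting error only, overlapped between GL_M_30 (1516 to 1554) and GL_M_94 (1482 to 1531). Among the 10 cells with Dhrs3, every other neighbouring pair in the order was separated by these intervals. Among the 4 low cells each interval overlapped the next, and only those of GL_M_65 (0.374 to 1.55) and GL_M_51 (0.0255 to 0.361) were separate.

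**Figure D1:**
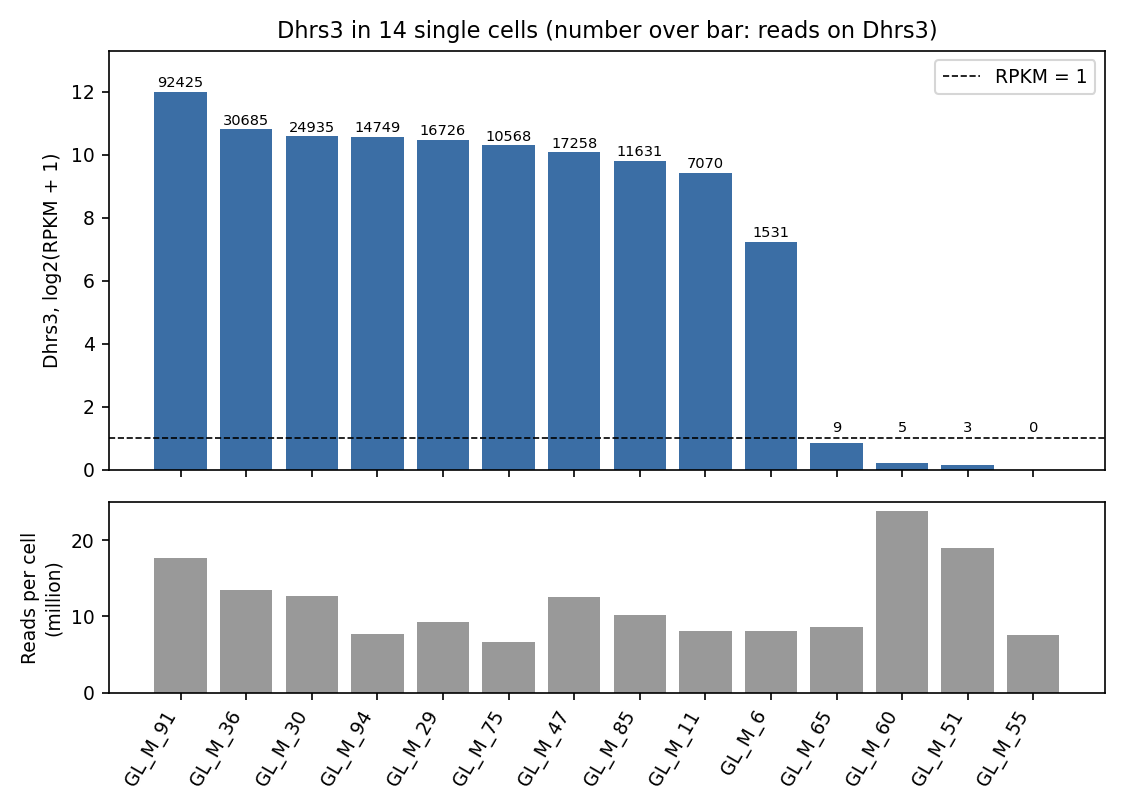
Dhrs3 level in each of the 14 cells as log2(RPKM + 1), with the number of reads on Dhrs3 above each bar, and below it the recovered read total of the same cell (M). 10 cells carry 1531 to 92425 reads and 4 cells 0 to 9 reads, and the read totals of the 4 low cells, 7.59 M to 23.8 M, include the highest of all.

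In the cells that carried it, Dhrs3 was an abundant transcript. In GL_M_91 it was the gene at position 5 by RPKM, in a cell with 1810 detected genes, and in GL_M_36 at position 19 of 5277. In GL_M_30, GL_M_94, GL_M_29, GL_M_47 and GL_M_75 it was at positions 44 to 65. It was at position 139 in GL_M_85, 215 in GL_M_11 and 811 in GL_M_6. The highest of these 10 cells exceeded the lowest 27.5-fold. GL_M_91 alone held 28.4% of the Dhrs3 RPKM summed over the 14 cells, and its level was 2.28-fold that of the next cell.

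Sequencing depth and the number of detected genes did not separate the 4 low cells from the others. GL_M_60 had 23.8 M reads and GL_M_51 had 19.04 M, more than any cell with Dhrs3. GL_M_65 had 8.62 M and GL_M_55 had 7.59 M, within the 6.60 M to 17.7 M of the 10 cells with Dhrs3. The 4 cells had 1770, 1894, 2866 and 2407 detected genes, in GL_M_60, GL_M_51, GL_M_65 and GL_M_55, while GL_M_91, the cell with the most Dhrs3, had 1810. The titles of the 4 cells are adjacent when the cells are sorted by title number, between GL_M_47 and GL_M_75. The sources used here do not say what the title numbers stand for, and their part in the result was not tested.

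The summed level of endothelial markers was lowest in the cells without Dhrs3. All 10 genes of an endothelial marker list were detected in some cell, and their RPKM summed per cell ranged from 8.34 to 2930, with a median of 800.1. The 4 cells lowest in this sum were the 4 cells without Dhrs3, with 8.34 in GL_M_51, 33.1 in GL_M_55, 165 in GL_M_60 and 575 in GL_M_65. The 10 cells with Dhrs3 had sums from 603 in GL_M_85 to 2930 in GL_M_30, so GL_M_65 and GL_M_85 lay close together. Plvap, a protein of the diaphragms of endothelial fenestrae, was at 0 in GL_M_51 and GL_M_55, 0.0417 in GL_M_60 and 4.89 in GL_M_65, but also at 0.906 in GL_M_94 and 0.140 in GL_M_91. Eng, the TGF-beta coreceptor endoglin, was at 6.01, 22.2, 3.01 and 46.4 in GL_M_51, GL_M_55, GL_M_60 and GL_M_65, and at 2.42 in GL_M_11, a cell with 689 of Dhrs3. Other genes of the list had another order. Tek, the angiopoietin receptor, was highest of all cells in GL_M_60, at 96.7, and Ehd3, a protein of membrane trafficking, was at 513 in GL_M_65, against 8.37 in GL_M_75 and 1.88 in GL_M_91. The number of endothelial genes at 10 or more did not separate the cells either, with 2 in GL_M_55, GL_M_60 and GL_M_65, 0 in GL_M_51, and 2 also in GL_M_11, GL_M_94 and GL_M_91.

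Some defining endothelial genes were at or near 0 in most cells. Pecam1, an adhesion molecule of endothelial junctions, was at most 1.87, and Cdh5, the endothelial cadherin, was at 12.7 in GL_M_30 and listed at 0 in the other 13 cells. Kdr, a receptor for VEGF, was at 127 in GL_M_30, 34.0 in GL_M_75 and below 1 elsewhere, while Emcn, the sialomucin endomucin, reached 1635 in GL_M_30 and 902 in GL_M_91. GL_M_30 had 9 of the 10 endothelial genes at an RPKM of at least 10, the most of any cell. In the 9 other cells with Dhrs3, Cdh5 was at 0 while Dhrs3 lay between 149 and 4084. The part of endothelial transcripts in the Dhrs3 levels was not tested.

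Other marker lists did not fall into the same order. The summed mesangial markers ranged from 6981 in GL_M_30 to 23018 in GL_M_60, with 8677 in GL_M_51, 9035 in GL_M_55 and 14382 in GL_M_65, so the cells without Dhrs3 lay inside the range of the others or above it. The summed podocyte markers were highest in GL_M_55, at 1796, and next in GL_M_51, at 516, while GL_M_60 and GL_M_65 had 7.02 and 0.938. Of 10 podocyte genes 8 were detected in some cell, and GL_M_55 had the most at 10 or more, which was 4. The smooth muscle markers summed to 0 to 2.63 in the 4 cells without Dhrs3 and to 0.0610 to 109 in the cells with it. Proximal tubule, distal tubule with collecting duct and erythroid lists had 0 detected genes in any cell. Pericyte markers (4 of 7 detected) summed to at most 1042, renin cell markers (2 of 3) to 1031, fibroblast markers (2 of 6) to 551 and macrophage and leukocyte markers (1 of 7) to 923. Lymphocyte markers (2 of 6) summed to at most 7.55 and parietal epithelial markers (2 of 6) to 3.88.

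**Figure D2:**
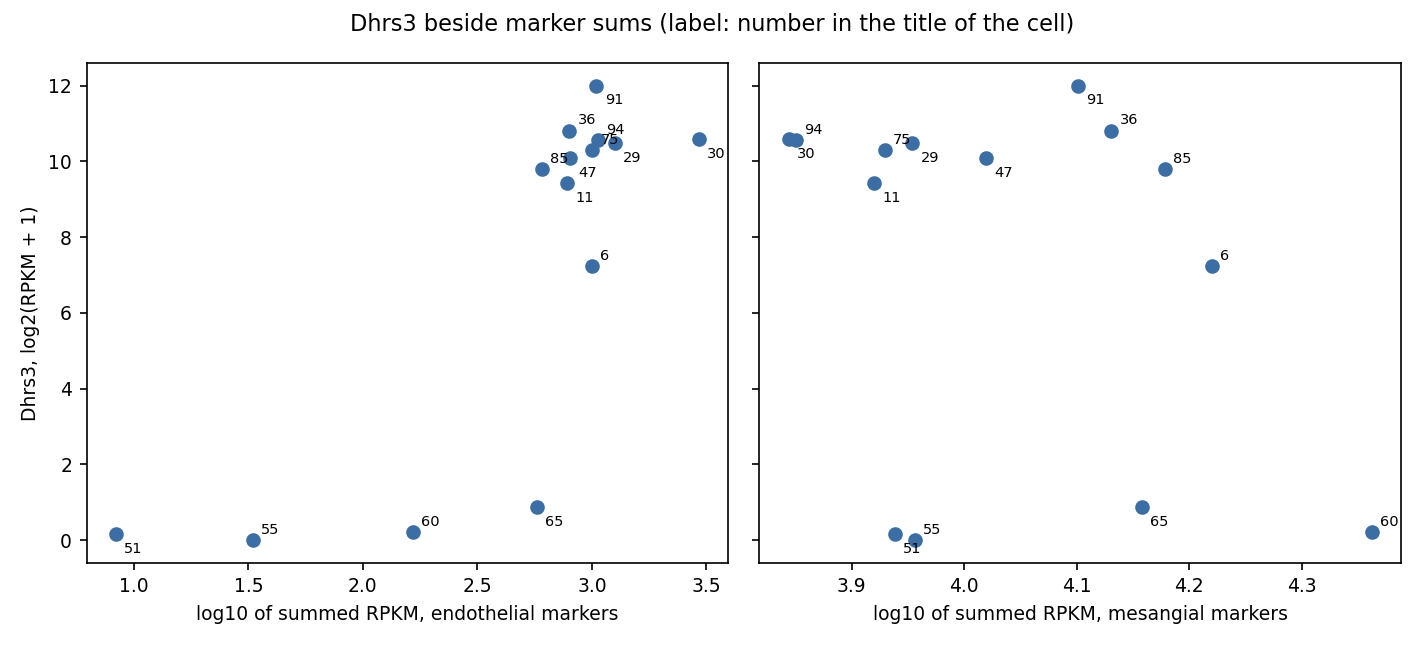
Dhrs3 as log2(RPKM + 1) in the 14 cells against the log10 of the summed RPKM of 10 endothelial markers (left) and 9 mesangial markers (right), each point labelled with the number in the title of the cell. The 4 cells without Dhrs3 have the 4 lowest endothelial sums, 8.34 to 575, and mesangial sums from 8677 to 23018.

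The spread that chose Dhrs3 was an SD of 4.72 on the log2(RPKM + 1) scale around a mean of 7.32. The 399 genes in its bin of mean level had SDs from 0.328 to 4.72, with a median of 2.94. This bin was wide, with Wrb at a mean of 5.68 and Nr2f2 at 8.26 both in it. Dhrs3 lay 1.78 above the median SD of the bin. Among 5008 genes averaging an RPKM of 10 or more this excess ranked at position 2, between Wrb at 1.78 and Dynlt3 at 1.72. High levels in this many cells were uncommon. Of 10300 genes detected in some cell, 174 (1.69%) were at an RPKM of 100 or more in at least 10 cells, and 44 were so in exactly 10. Of those 44, 2 were below 1 in all of the remaining 4 cells, Dhrs3 among them. Dhrs3 was the 1 gene at 10 or more in these 10 cells and below 1 in these 4, a count defined from its own values.

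**Figure D3:**
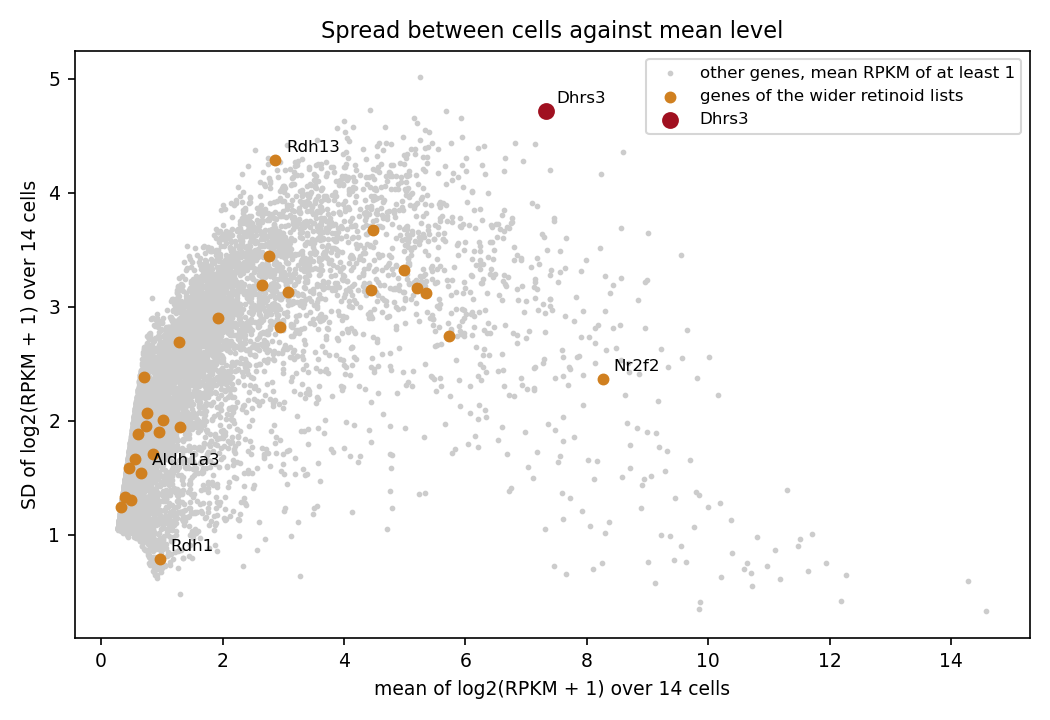
SD against mean of log2(RPKM + 1) over the 14 cells for genes averaging an RPKM of 1 or more, with genes of the wider retinoid lists in orange and Dhrs3 in red. Dhrs3, at a mean of 7.32 and an SD of 4.72, lies at the upper edge of the cloud, while Aldh1a3 lies inside it.

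The other 8 genes were rare or absent in the data. Of the 9 genes 2 (22.2%) were detected in some cell, beside 41.8% of 21396 protein-coding genes in the table, and 6 were listed at 0 in all 14 cells, beside 44.3% of protein-coding genes. Being at 0 is thus common in this table. A share of 0 of 14 cells has an exact interval reaching 23.2%, which limits cells with a detected transcript and not cells that express the gene.

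Among the 9 genes, the enzymes that make retinaldehyde and retinoic acid were at 0 apart from Aldh1a3. Rdh10, the main retinol dehydrogenase of the mouse embryo (ENSMUSG00000025921, chromosome 1 from 16105774 to 16133734, plus strand), was listed at 0 in every cell. At these depths and its annotated exon length of 4160 bases, 3 reads equal an RPKM of 0.0303 in GL_M_60, the deepest cell, and 0.109 in GL_M_75, the shallowest. Aldh1a1 (chromosome 19 from 20492715 to 20643465, plus) and Aldh1a2 (chromosome 9 from 71215789 to 71296243, plus), both retinaldehyde dehydrogenases, were listed at 0 in all 14 cells as well. Their 3-read limits were 0.0255 to 0.0921 for Aldh1a1 and 0.0556 to 0.201 for Aldh1a2. These limits rest on annotated lengths over all transcripts of a gene and may be too low, since the lengths recovered from the values were 1276 bases for Dhrs3 and 1473 for Aldh1a3, against annotated lengths of 2927 and 4617. No length can be recovered for a gene at 0 in every cell.

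Aldh1a3, the third enzyme of this kind (ENSMUSG00000015134, chromosome 7 from 66390890 to 66427517, minus strand), was detected in 2 of 14 cells (exact interval 1.78% to 42.8%). It was at an RPKM of 45.9 in GL_M_11, from 544 reads, and at 4.10 in GL_M_36, from 81 reads, and the counting intervals of these cells, 42.2 to 49.97 and 3.26 to 5.10, did not overlap. It was at 0.630 in GL_M_65, 0.213 in GL_M_30, 0.143 in GL_M_51 and 0.108 in GL_M_47, from 8, 4, 4 and 2 reads, and listed at 0 in the other 8 cells. Both cells in which it was detected also carried Dhrs3, at 689 and 1793. Dhrs3 was detected in 10 of the 14 cells, and this overlap was not compared with that of other genes. In GL_M_11 the level of Dhrs3 was thus an RPKM of 689 beside 45.9 for Aldh1a3, both per length of gene. GL_M_36 had the most detected genes of all cells, and without it and GL_M_47, the next in that number, Aldh1a3 was detected in 1 of 12 cells.

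The carriers and the retinol receptor were undetected. Rbp4 (chromosome 19 from 38116629 to 38125281, minus), Crabp1 (chromosome 9 from 54764748 to 54773110, plus) and Crabp2 (chromosome 3 from 87948666 to 87953376, plus) were listed at 0 in every cell. Crabp1 has the shortest annotated exons of the 9, 802 bases, so its limit of 3 reads, on the same annotated lengths, was the highest, 0.157 to 0.567. Stra6 (chromosome 9 from 58063788 to 58153996, plus) was at 0.114 in GL_M_30 and listed at 0 in the other 13 cells. None of the 9 genes has an annotated exon overlapped by another gene, and at most 3.06% of their 50-base stretches, in Aldh1a1, occur in other transcripts.

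Around the 9 genes, wider lists gave the other genes of the pathway by role, 81 with a row in the table. Of these 38 (46.9%) were detected in some cell, close to the 41.8% of protein-coding genes. In a single cell 5 to 21 of the 80 genes other than Dhrs3 were detected, lowest in GL_M_60 and highest in GL_M_47, cells with 1770 and 4842 detected genes in all.

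Uptake and storage genes beyond the 9 were sparse. Scarb1, a lipoprotein receptor that can take up carotenoids, was at 61.4 in GL_M_47 and at most 0.175 elsewhere. Ttr, Stra6l, Lrp2, Cd36, Rbp2 and Rbp7 were not detected. Dgat1, an acyltransferase that can esterify retinol, was at 495 in GL_M_51 and below 1 elsewhere, and Lrat, lecithin retinol acyltransferase, was listed at 0 in every cell. Lipe reached 2.79, and Rpe65, Bco1 and Bco2 were undetected.

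Of the other retinol-oxidising enzymes, only Adh5, Rdh16, Rdh5 and Rdh9 reached an RPKM of 10, in 1 or 2 cells each. Adh5, an alcohol dehydrogenase of broad function, was at 523 in GL_M_6 and 174 in GL_M_29 and at most 7.61 elsewhere. Rdh5 was at 206 and Rdh16 at 88.8 in GL_M_55, a cell without Dhrs3, and Rdh16 was also at 16.0 in GL_M_94. Rdh9 was at 22.3 in GL_M_75, but 64.1% of its exon bases are overlapped by Rdh16f1 and 68.3% of its 50-base stretches occur in other transcripts, so its value is uncertain. The same holds to a lesser degree for Rdh5 (20.4%), Rdh1 (15.6%) and Rdh16 (14.5%). Rdh1 was low but widespread, detected in 7 cells with at most 4.57. Of 13 genes 5 (38.5%) were detected, beside 41.8% of protein-coding genes. Rdh7, Rdh19, Dhrs9, Sdr16c5, Adh1, Adh4 and Adh7 were, like Rdh10, undetected.

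Among enzymes that reduce retinaldehyde, Rdh13, a mitochondrial retinol dehydrogenase, was the other strong gene. It was at 1075 in GL_M_94, 827 in GL_M_75, 509 in GL_M_6 and 414 in GL_M_47, at 1.12 in GL_M_36, and below 1 in the other 9 cells. The 5 cells in which Rdh13 was detected were all among the 10 with Dhrs3. Rdh13 was listed at 0 in each of GL_M_51, GL_M_55, GL_M_60 and GL_M_65, but also in GL_M_30, where Dhrs3 was at 1535. Most cells carried Dhrs3, and this overlap was not compared with that of other genes. Pearson's r of Rdh13 with Dhrs3 over the 14 cells was 0.36 on the log2 scale, which is weak. Rdh12 was detected in 5 cells with at most 6.38, and Rdh11 in 1, at 1.41, while Dhrs4 and Rdh14 were undetected. Of other members of the Dhrs family Dhrs7 was at 10 or more in 6 cells, up to 257 in GL_M_47 and including 101 in GL_M_51 and 13.7 in GL_M_65, where Dhrs3 was below 1. Dhrs7b was at 10 or more in 2 cells, Dhrs1 reached 6.43, and Dhrs2, Dhrs7c, Dhrs11 and Dhrs13 were undetected.

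**Figure D4:**
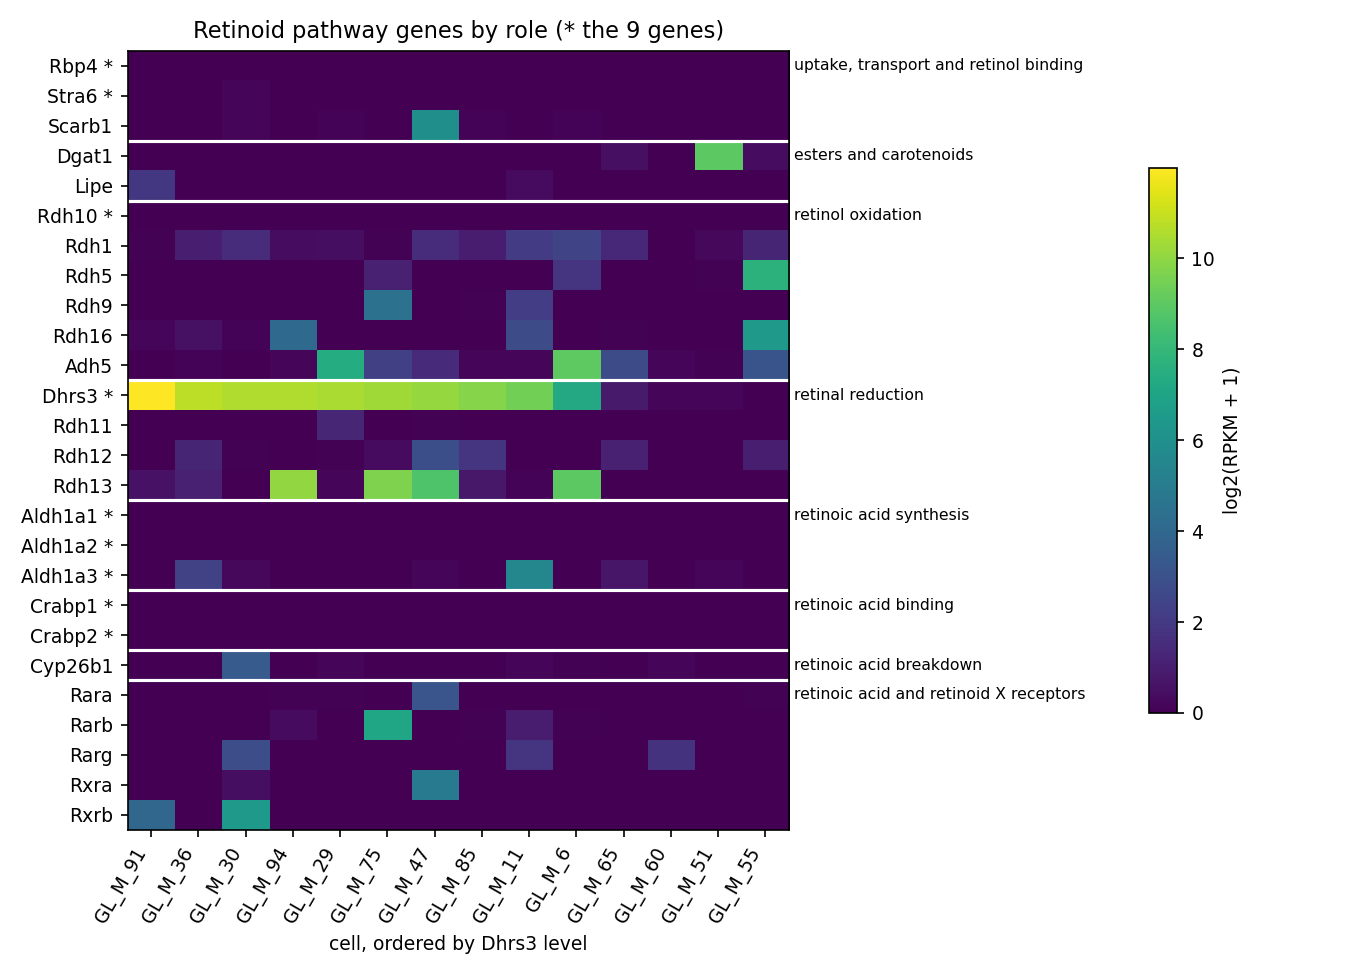
Level as log2(RPKM + 1) of the 9 genes (asterisks) and of other detected genes of the metabolic and receptor lists, grouped by role from uptake to receptors, in the 14 cells ordered by their Dhrs3 level. The row of Dhrs3 is bright in 10 cells, that of Rdh13 in 4, and the rows of Rdh10, Aldh1a1, Aldh1a2, Rbp4, Crabp1 and Crabp2 are at 0 throughout.

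Retinoic acid handling downstream was sparse. Fabp5, an alternative carrier of retinoic acid, was listed at 0 in every cell, as were Aldh1a7 and Aldh8a1. Of the breakdown enzymes Cyp26a1 and Cyp26c1 were listed at 0, and Cyp26b1 was at 9.80 in GL_M_30 and at most 0.132 elsewhere. Each of the 3 retinoic acid receptors and 2 of the 3 retinoid X receptors, their dimer partners, were detected, but in 1 to 3 cells each. Rarb was at 135 in GL_M_75, Rxrb at 85.1 in GL_M_30 and 14.7 in GL_M_91, Rxra at 30.8 in GL_M_47, Rara at 7.95 in GL_M_47 and Rarg at 6.13 in GL_M_30, while Rxrg was undetected. Rarb shares 34.1% of its 50-base stretches with other transcripts, and Top2b and Gm48162 on the other strand overlap 38.4% of its exon bases, so without strand their reads cannot be told apart. The receptor coregulators, which serve many nuclear receptors, were all detected, 9 of 9, beside 41.8% of protein-coding genes. Ncoa3 was at 10 or more in 11 cells, Crebbp in 10 and Med1 in 8.

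Of 20 genes known to respond to retinoic acid in other settings, 10 (50%) were detected, close to the 41.8% of protein-coding genes. Dhrs3, chosen from these data, was among them. Nr2f2, an orphan nuclear receptor, was the most widespread, at 10 or more in 13 cells and at 1.15 in GL_M_91, the cell with the most Dhrs3. Rarres2, the secreted protein chemerin, was at 10 or more in 9 cells, with up to 1019 in GL_M_85 and 299.8 in GL_M_60, a cell without Dhrs3. Lrrc61 on the other strand overlaps 33.6% of its exon bases. Meis2 and Nr2f1 were at 1319.6 and 191 in GL_M_55, where Dhrs3 was at 0. These are single cells. Over the 14 cells, Pearson's r with Dhrs3 on the log2 scale was 0.50 for Rarres2, 0.27 for Nr2f1, 0.22 for Meis2 and -0.27 for Nr2f2. Among the undetected genes were Hoxb1, Cyp26a1, Stra6, Crabp2, Tgm2, Rarres1, Stra8, Cdx1 and Hic1.

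The genes whose pattern was most like that of Dhrs3 were sought among 3232 protein-coding genes averaging an RPKM of 10 or more and detected in at least 4 cells, by Pearson's r of log2(RPKM + 1) over the 14 cells. The cells share 1 animal and Dhrs3 splits them into a high and a low set, so r is a description with no p-value, and r within the 10 cells with Dhrs3 is given beside it. Among the genes with the highest r were Ctnna1, alpha-catenin of cell junctions, with r = 0.91, the transcription factor Foxn2 with 0.89, the splicing protein gene Snrpg with 0.86 and the transcription factor Foxp1 with 0.82. The median r of all genes ranked was 0.13, and 16 reached 0.7.

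Ctnna1 was at 804 in GL_M_94 and 45.3 in GL_M_29, and at 2.42, 0.499 and 0.0284 in GL_M_60, GL_M_55 and GL_M_51. Within the 10 cells with Dhrs3 r was -0.02 for Ctnna1, -0.18 for Foxn2, 0.58 for Snrpg and -0.10 for Foxp1. In these cells Snrpg was at 0 in GL_M_6, the lowest of them in Dhrs3, and at 22.8 or more in the rest. Foxn2 and Snrpg were below 1 in all 4 cells without Dhrs3, Ctnna1 in 3 and Foxp1 in 2.

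The lowest r values were nearer to 0 than the highest. Selenoh, a selenoprotein, had r = -0.77, the GTPase gene Rab12 -0.76, Eno1, enolase, -0.75, Fsd1l -0.72 and Prkaca, a catalytic subunit of protein kinase A, -0.70. Selenoh was at 2005 in GL_M_51 and 215 in GL_M_60, and Rab12 was at 10 or more in all 4 cells without Dhrs3, with 1411 in GL_M_60, but also in 4 cells with it. Within the 10 cells with Dhrs3 r was -0.83 for Selenoh, -0.78 for Rab12, 0.34 for Eno1, -0.11 for Fsd1l and 0.20 for Prkaca. The first 2 values lean on GL_M_6, the lowest of these 10 cells in Dhrs3. There Selenoh was at 32.0 and Rab12 at 556, against at most 0.128 and 24.1 in the rest of the 10. Their r without GL_M_6 was not computed. Eno1 shares 26.0% of its 50-base stretches with other transcripts, and Snrpg 11.6%.

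**Figure D5:**
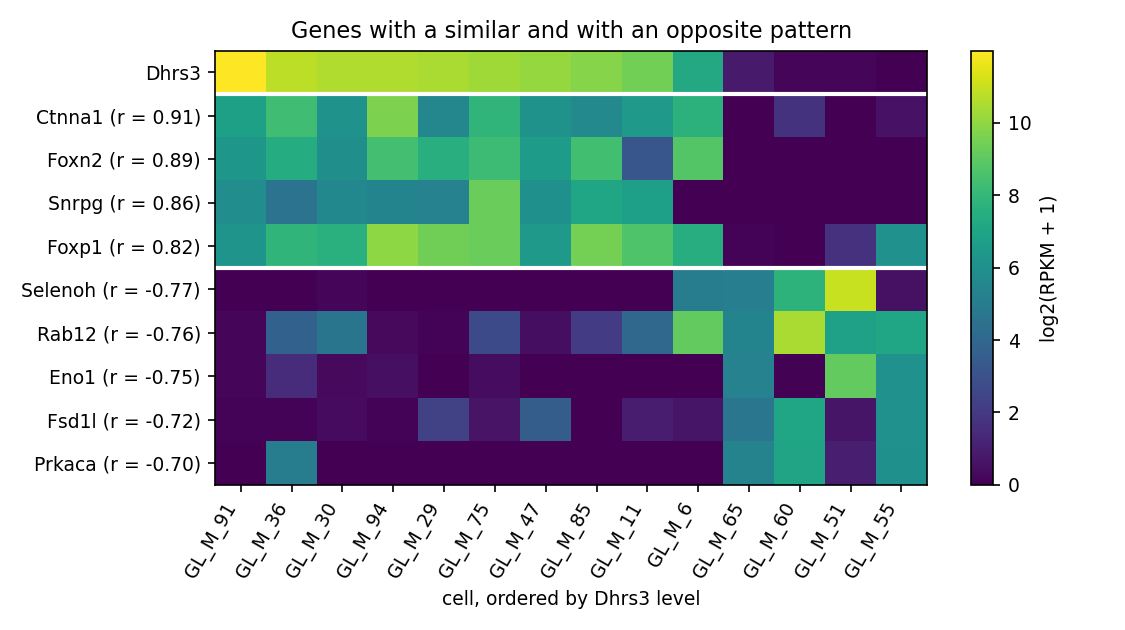
Level as log2(RPKM + 1) of Dhrs3 (top row), of 4 genes among those with the highest Pearson's r with it and of the 5 with the lowest, in the 14 cells ordered by their Dhrs3 level. The 4 upper genes are low in most of GL_M_65, GL_M_60, GL_M_51 and GL_M_55, and the 5 lower genes are high in some of these cells, up to 2005 for Selenoh in GL_M_51.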

How the data were processed

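Single-cell cDNA of 14 cells was sequenced, and the authors deposited RPKM values per Ensembl gene, 1 column per cell. Per the submitters' processing notes, TopHat2 2.0.12, HTSeq 0.6.1 and the build mm10 were used. Annotation release, handling of multi-mapping reads, use of strand and cell filters: not given in the sources used here. Of 35271 genes 34488 matched a symbol of GENCODE M21, on GRCm38, which mm10 denotes.

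Read totals were recovered from genes with 1 annotated transcript, where values below 50 reads lay 0.02 reads or less from a whole number for 85.0% to 89.7% of them per cell, and the odd share of those was 63.7% to 68.5%. On simulated whole reads of 34488 genes, 14 of 14 totals came back within 0.1 percent. Reads of a gene are those at the smallest length that made all its values whole. No molecular identifiers are mentioned, so exact 95% Poisson and Clopper-Pearson intervals and limits of 3 reads cover counting error, or the sampling of cells of 1 mouse, only. The log scale is log2(RPKM + 1). The excess SD was taken over the median of 20 bins of mean level for 7976 genes averaging an RPKM of 1 or more. The excess SD and the likeness ranking were tested on simulated data.

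Genes were named as the 9 members, the 3 of each role list with the most cells at 10 or more, other list genes that were detected or undetected, and the 5 genes most and least like Dhrs3. Some genes these rules select are not reported here, and counts over lists include them. Wrb, Dynlt3 and the marker genes were named after their values were seen. The members and lists were chosen with earlier results of these data known. Rbp5 and Dhrsx, 2 of 83 listed genes, are not analysed here. Python 3.11.15, numpy 2.4.6, pandas 2.3.3, scipy 1.17.1 and matplotlib 3.10.9 were used. Alternatives changed the limit of detection, the pseudocount, the scaling, the filter, the bins, the measure of likeness and the cells included.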

Additional observations from a re-analysis of the deposited data

How the results depend on the processing

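Of 266 recomputed values 258 kept within the interval of their share of cells or within 1.5 times the value reported. This tally includes 19 values for each of Rdh10, Rbp4, Aldh1a1, Aldh1a2, Crabp1 and Crabp2. Those genes were at 0 in every cell, so these values could not change and say nothing on stability. Leaving out 1 cell also could not take the shares of Dhrs3 and Aldh1a3 outside their intervals. A further 18 values are the SD of Dhrs3 and 21 its excess SD, the measure that chose it. The tally is thus no measure of stability. Of the values on the list of like genes, 12 kept within the range and 6 did not. Counting any value above 0 as detected gave Dhrs3 in 13 cells and Aldh1a3 in 6, through values of 9 reads or fewer; limits of 5 and 10 left Dhrs3 in 10 cells. Without the cells with the most endothelial and podocyte markers, GL_M_30 and GL_M_55, Dhrs3 was detected in 9 of 12 cells. Leaving out each cell gave an SD of Dhrs3 from 4.39 to 4.91. The excess SD of Dhrs3 was 1.45 with 10 bins and 2.09 with only genes averaging an RPKM of 10 or more. The list of like genes depended on the measure: of the 10 genes the ranking selects, Spearman's rho in place of Pearson's r kept 1, dropping the filter on the mean kept 5, and leaving out each cell kept 3 to 9, with 6 without GL_M_51 or GL_M_55, 5 without GL_M_60 and 3 without GL_M_65. The cause was not tested. No paired analysis was possible because the cells form 1 group. With 1 mouse, no value has a biological replicate, and depth limits statements on genes at 0 to the limits of 3 reads given.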
